A study of Populus ussuriensis with 9 samples.

Results

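In leaves of the poplar Populus ussuriensis, 57 genes were far lower in 1 of 2 transgenic lines, OE18, than in wild type (WT), while in the other line, OE14, they stayed within 1 log2 unit of WT. They were chosen by their own values, from a table of 29764 genes in which 22848 passed a filter on low values. To pass, a gene had to reach 1 FPKM in 3 or more of the 9 libraries. FPKM is the number of fragments per kilobase of gene, scaled to the reads assigned in its library. A gene was a member when log2(mean FPKM + 1) in OE18 minus that in WT was -2.5 or lower, and the absolute difference between OE14 and WT was under 1. Both comparisons with WT therefore entered the choice, and they also fix the direction between OE18 and OE14. The falls, the OE14 values and their calls are given here as a description, with no test.

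OE18 carries LbDREB6 at a high level of overexpression and OE14 at a moderate one, per the labels, and WT plants are labelled as wild type. Each group had 3 libraries of fully expanded leaves from greenhouse plants aged 6 months. All plants had water withheld, for 2 weeks by the sample descriptions or 1 week by the treatment protocol, and watered plants were not analysed here. The level of overexpression cannot be told apart from the line, since each level was 1 line. The promoter of the transgene is not given in the sources used here. The 3 WT columns carry no sample title and were assigned by elimination. The libraries are described as biological replicates, but nothing says how plants were assigned to them, so any spread between them may be partly technical.

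DREB proteins are transcription factors of the plant AP2/ERF family. They bind dehydration-responsive elements in promoters and are known mostly as activators of genes for tolerance to drought, salt and cold. A line made with such a transgene can differ from WT in the direct targets of the factor, in genes further downstream, and in whatever the insertion itself changed. A lower transcript level can come from less synthesis or from faster decay. In whole leaves, fewer cells of a type and less RNA per cell cannot be told apart.

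The table gives locus IDs without gene names or descriptions, and no annotation was used here. Functions, pathways and leaf cell type markers could therefore not be assigned, and LbDREB6 itself was not analysed here. Only 2 member IDs are printed, that of the largest fall and that of the member most abundant in WT. Other members are identified by the chromosome that the ID gives. Library totals, recovered from the steps of the FPKM values, ran from 10988010 to 16221919 reads. OE18 stood apart across the table: limma called 79.5% of the tested genes in OE18 against WT and 52.8% in OE14 against WT.

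Large falls in OE18 that left OE14 near WT were a minority of the large falls. In OE18, 142 genes lay 2.5 log2 units or more below WT. Of these, 57 (40.1%) were within 1 unit of WT in OE14, 82 were lower by 1 or more in OE14 as well, and 3 were higher by 1 or more. Rises of the same size in OE18 numbered 851, and 661 of them (77.7%) lay within 1 unit of WT in OE14. A fall of this size needs a WT mean of at least 4.66 FPKM, whereas a rise can start from any WT level. The shares for falls and rises are therefore not compared at a like level. The converse pattern, a fall of 2.5 or more in OE14 with OE18 within 1 unit of WT, was found in 5 genes. Across all tested genes, 94.5% were within 1 unit of WT in OE14. OE18 and OE14 were set against the same WT libraries in all these counts.

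**Figure D1:**
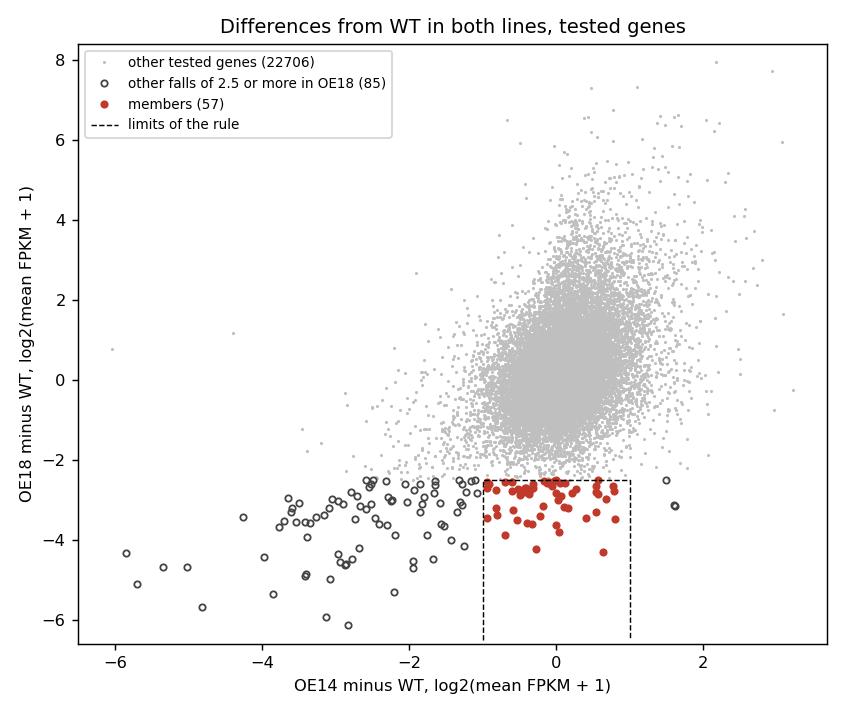
Difference of OE14 from WT (x axis) and of OE18 from WT (y axis) for every tested gene, in log2(mean FPKM + 1). The 57 members (filled) lie inside the dashed limits of the rule, below -2.5 in OE18, and the 85 other falls of that size (open circles) lie mostly to the left, where OE14 was also lower.

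The limit in OE18 divided a continuous range of values. The member nearest to it, on chromosome 3, lay at -2.502 with a mean of 36.7 FPKM in OE18, 212 in OE14 and 213 in WT. The nearest gene outside, on chromosome 12, lay at -2.499, with 0.153 FPKM in OE18, 5.58 in OE14 and 5.52 in WT. In OE14 the nearest member lay at -0.94, with means of 3.27 FPKM in OE18, 12.05 in OE14 and 24.1 in WT. The nearest large fall outside lay at -1.08 in OE14, with 1.07 FPKM in OE18, 5.92 in OE14 and 13.6 in WT. On this lower side of OE14 the other falls thus began close to where the members ended, with no gene between -1.08 and -0.94. On the upper side the members ended at 0.80. The 3 other falls there lay farther from WT in OE14 than the nearest falls on the lower side.

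Members kept a small share of their WT level in OE18, as the rule requires, so the upper end of that share is set by the limit. The OE18 mean was 0 to 17.3% of the WT mean, with a median of 10.1%, and it was under 10% in 27 of the 57 genes. The OE14 mean was 48.5% to 174% of the WT mean, with a median of 88.5%. The log2 difference between OE18 and WT ran from -4.31 to -2.502 with a median of -2.79, against a median of 0.03 over all tested genes. Between OE14 and WT it ran from -0.94 to 0.80 with a median of -0.16, against 0.07 over all tested genes.

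The falls were present in every OE18 library. The median difference from WT over the members was -2.76, -2.84 and -2.85 in the 3 OE18 libraries. In the OE14 libraries it was -0.17, -0.19 and -0.09. In all 57 members every OE18 library lay below every WT library, and libraries did not overlap in this direction in 38.2% of the tested genes. The rule used this contrast, so nothing is read from that count. A library that had no part in the choice gave similar medians. With OE18 library 1 left out, 60 genes met the rule, and the left-out library lay at a median of -2.75 for them. For OE18 library 2 the figures were 58 genes and -2.84, and for OE18 library 3 they were 54 genes and -2.85. At the limit of -2.5 itself, the left-out library met it for 45 of 60, 46 of 58 and 48 of 54 genes. It was at -2 or lower for all of the chosen genes in each case. The WT and OE14 libraries were the same ones that chose the genes, and the left-out library came from the same line. The left-out values are therefore no independent support for the falls.

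The members were abundant leaf transcripts as a group. WT means ran from 5.95 to 1280 FPKM with a median of 46.7. The rule demands a WT mean of at least 4.66 FPKM, because of the added 1, and 14438 tested genes met that. Their median was 14.5 FPKM. Above that floor, the added 1 still demands a larger fold fall of a gene that is low in WT than of an abundant gene. The rule thus favours abundant genes, and the higher level of the members is in part its outcome. Of the members, 30 (52.6%) were among the 2284 highest of the tested genes by WT level, at 41.2 FPKM or more, and 2 were among the 100 highest. The 85 other large falls were more abundant still, with a WT median of 182 FPKM.

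Together the members made up a measurable part of the leaf transcript pool. Their summed FPKM was 785, 785 and 765 in the OE18 libraries, 6464, 6558 and 6547 in the OE14 libraries, and 6824, 6631 and 6683 in the WT libraries. That is 0.139% ± 0.0028 of all FPKM in OE18, 1.24% ± 0.018 in OE14 and 1.28% ± 0.018 in WT (SD, n = 3 each). OE18 was far below both other groups, and the OE14 libraries were all slightly below the WT libraries. The order of OE14 and WT depends on abundant members that differ in opposite directions. The most abundant member, described next, had means of 887 FPKM in OE14 and 1280 in WT. That gap is wider than the gap between the summed means, 6523 in OE14 and 6712.5 in WT. Without the most abundant member the mean sum of OE14 would lie above that of WT. The second most abundant member went the other way, with means of 1026.5 FPKM in OE14 and 708 in WT.

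The most abundant member was Potri.013G101000.v3.0. It had 111, 110.3 and 112 FPKM in the OE18 libraries, 911, 862 and 889 FPKM in the OE14 libraries, and 1277, 1281 and 1284 FPKM in the WT libraries. The groups did not overlap, with OE14 in between, and the libraries of each group lay close together. OE18 kept 8.68% of the WT level and OE14 kept 69.3%, log2 differences of -3.52 and -0.53. By level it stood in place 774 of the tested genes in OE18, 34 in OE14 and 26 in WT.

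The second most abundant member, on chromosome 4, differed in its OE14 course. It had 73.3, 66.2 and 71.6 FPKM in OE18, 1005, 1083 and 992 FPKM in OE14, and 725, 684 and 714 FPKM in WT. All OE14 libraries were above all WT libraries, while OE18 kept 9.93% of the WT level. It stood in place 1300 in OE18, 25 in OE14 and 60 in WT.

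**Figure D2:**
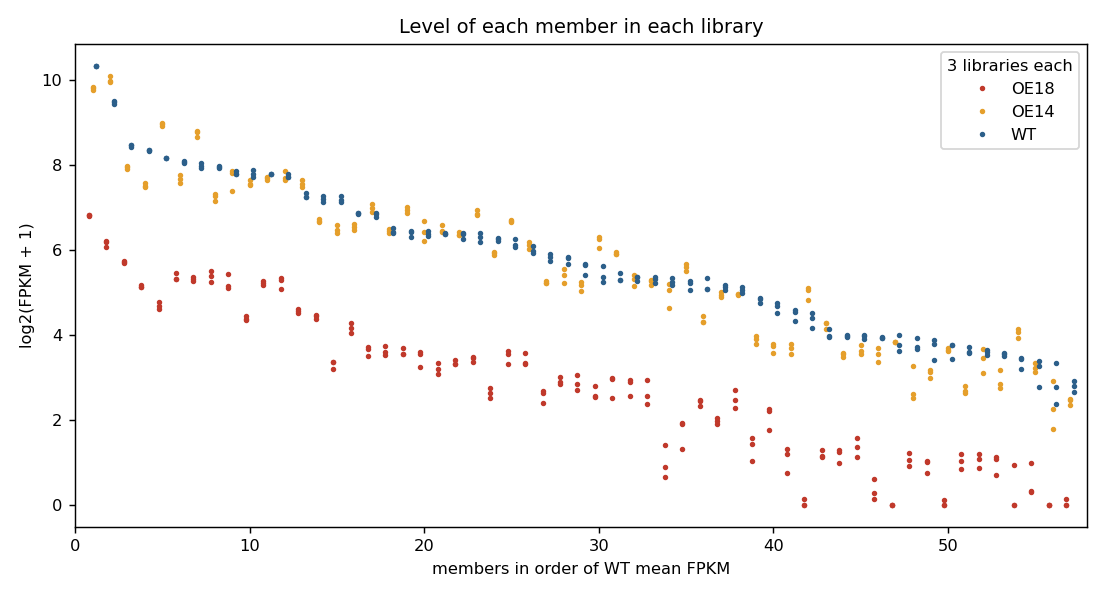
Level of each of the 57 members as log2(FPKM + 1) in the 9 libraries (3 points per group), with the members in order of their WT mean. The OE18 points lie below the WT and OE14 points for every member, and the OE14 points lie on either side of WT.

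The largest fall was that of Potri.006G067200.v3.0, which was all but absent from OE18. It had 0, 0.109 and 0 FPKM in the OE18 libraries, 33.2, 27.4 and 32.2 FPKM in the OE14 libraries, and 19.9, 16.9 and 22.01 FPKM in the WT libraries. These values rest on 1 read over the 3 OE18 libraries, 884 in OE14 and 480 in WT. Scaled to depth, OE18 was 503-fold below WT, with an exact 95% interval of 89.9 to 19920 that covers counting error only. OE14 lay above WT in every library, by 0.63 on the log2 scale.

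A small set of members was at or near zero reads in OE18. No read at all was found in OE18 for 2 members, both on loci that the IDs do not place on a chromosome. The first had 13.1, 13.3 and 13.3 FPKM in OE14, against 12.4, 15.03 and 11.3 FPKM in WT. Counting 3 reads over the OE18 libraries as its ceiling, OE18 was at least 64.0-fold lower. The exact 95% interval, which also counts the error of the WT reads, began at 51.5-fold. The second had 2.45, 3.76 and 6.52 FPKM in OE14, against 5.89, 4.17 and 9.18 FPKM in WT, and OE18 was at least 45.4-fold lower by the same ceiling, with an exact 95% interval from 36.1-fold. Its OE14 and WT libraries overlapped.

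Reads in OE18 numbered 1 to 3 for 3 members, the largest fall among them. A member on chromosome 9 had 1 read in OE18, 409 in OE14 and 351 in WT. Its values in FPKM were 0, 0.0888 and 0 in OE18, 11.9, 11.6 and 11.4 in OE14, and 12.5, 12.6 and 9.85 in WT, so OE14 lay within the WT range. A member on chromosome 8 had 2 reads in OE18, 288 in OE14 and 331 in WT, a ratio of 174 between WT and OE18 (exact 95% interval 47.7 to 1439). In contrast, 38 members had 100 or more reads in OE18, and their levels there were low but well counted.

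The rule keeps OE14 near WT but leaves room for smaller differences, and many members had one. In OE14 against WT, limma called 39 of the 57 members, 26 lower and 13 higher, and did not call 18. Over all tested genes it called 20.9% lower and 31.9% higher. That excess of higher calls depends on the scaling: 7297 genes were called higher and 4777 lower as deposited, 6216 and 5861 with median-of-ratios scaling, and 6041 and 5836 with quantile normalization. The OE14 libraries lay wholly below WT in 28 members and wholly above in 14, with backgrounds of 24.3% and 36.1%. OE14 against WT was part of the rule, so these counts describe the members only. Members whose OE14 call was lower, absent or higher had median OE18 differences of -2.77, -2.74 and -2.86.

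The 18 members that were not called in OE14 lay between -0.50 and 0.21 there, with a median of -0.01. The closest to WT was a member on chromosome 2. It had 10.5, 11.2 and 12.4 FPKM in OE18, 83.9, 88.4 and 85.8 FPKM in OE14, and 84.5, 83.2 and 90.3 FPKM in WT. OE14 and WT overlapped fully, and OE18 kept 13.2% of the WT level. The largest fall in this set was on chromosome 4, with 0.848, 1.67 and 0.566 FPKM in OE18, 23.8, 32.5 and 35.6 FPKM in OE14, and 39.7, 34.9 and 36.7 FPKM in WT. OE18 kept 2.77% there, and 1 OE14 library reached into the WT range. A p that misses the threshold does not show that these 18 genes were the same in OE14 and WT.

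The 26 members called lower in OE14 lay between -0.94 and -0.18, with a median of -0.52, in the same direction as in OE18 but far smaller. A member on chromosome 15 had 9.21, 9.20 and 8.11 FPKM in OE18, 83.4, 87.5 and 95.2 FPKM in OE14, and 153, 138 and 142 FPKM in WT. The 3 groups did not overlap, with OE14 at 61.5% of WT and OE18 at 6.13%. A member on chromosome 11 was near the OE14 limit. It had 1.95, 1.68 and 1.05 FPKM in OE18, 12.7, 14.7 and 13.8 FPKM in OE14, and 28.4, 27.5 and 25.8 FPKM in WT. OE14 kept 50.5% of WT there and OE18 kept 5.73%. In all, 7 members lay at -0.75 or lower in OE14.

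The 13 members called higher in OE14 lay between 0.16 and 0.80, with a median of 0.57. A member on chromosome 1 showed the largest difference of this kind on the log2 scale. It had 24.5, 23.3 and 26.3 FPKM in OE18, 499.7, 481 and 504 FPKM in OE14, and 285, 284 and 285 FPKM in WT. OE14 was at 174% of WT and OE18 at 8.67%, and within each group the libraries were close. A member on chromosome 16 had 38.6, 39.8 and 37.8 FPKM in OE18, 437, 404 and 442 FPKM in OE14, and 261, 249.8 and 241 FPKM in WT. Its OE14 libraries were all above its WT libraries, at 171% of the WT mean.

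**Figure D3:**
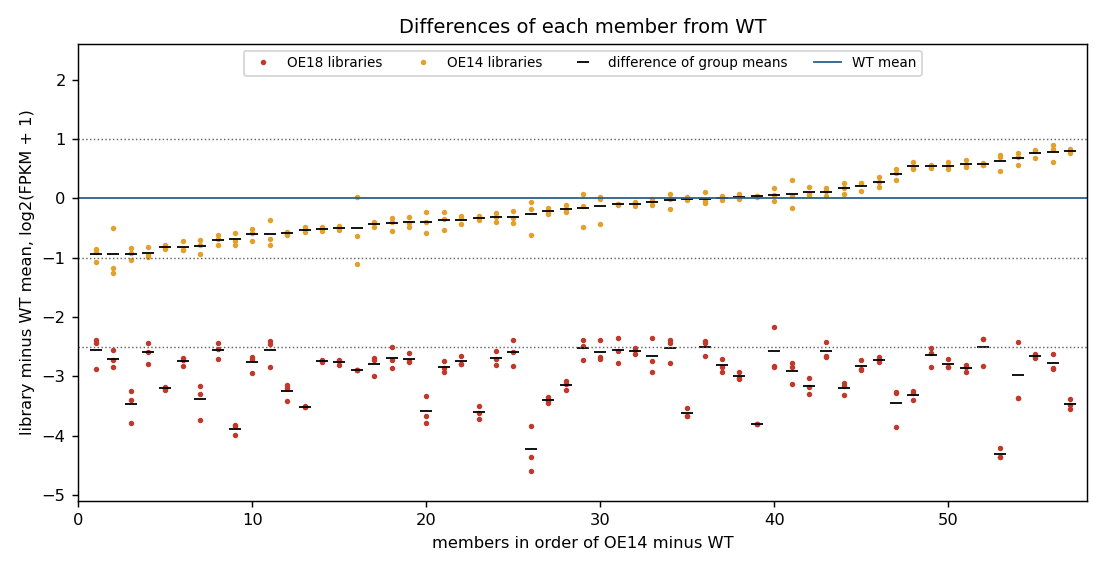
Difference of each OE18 and OE14 library from the WT mean, in log2(FPKM + 1), for the 57 members in order of OE14 minus WT, with short bars for the difference of group means and dotted lines at the limits of the rule. OE14 runs from -0.94 to 0.80 across the members, while the OE18 bars stay between -4.31 and -2.502.

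How many members lay above WT in OE14 moved a little with the scaling of the libraries. As deposited, 21 were above and 36 below. The number above was 17 with median-of-ratios scaling, 18 with quantile normalization and 20 with libraries rescaled to the same sum. In OE18 all 57 members lay below WT under each of these scalings. Quantile normalization moved the median of all tested genes in OE18 against WT to -0.14, against 0.03 as deposited, and the highest member value was then -2.53.

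The members were short genes, by lengths recovered from the FPKM steps. Their median length was 1207 bases, with quartiles of 865 and 1637, against a median of 1947 for the 14438 genes whose WT level allowed such a fall. Of the members, 47 were at or below that median and 7 were longer than 2000 bases. The shortest had 390 bases and the longest 3588. The 85 other large falls had a median of 1226 bases, close to that of the members.

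Length goes with abundance, so it was also set out by WT level. Among the 2284 tested genes highest in WT, the median length was 1374 bases for the 30 members there and 1691 for all. Among the remaining genes at 4.66 FPKM or more in WT, it was 1103 bases for the 27 members and 1993 for all 12154. The members were shorter in both strata, and more so in the lower one. The part that length has in the choice of members was not tested.

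**Figure D4:**
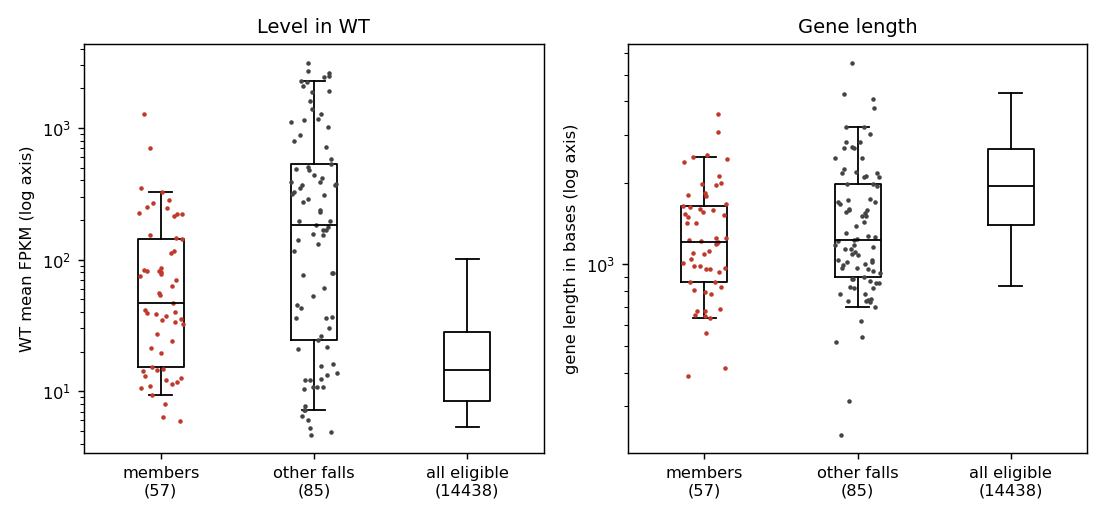
WT mean FPKM (left) and gene length in bases (right), both on log axes, for the 57 members, the 85 other falls of 2.5 or more in OE18 and the 14438 tested genes whose WT level allows such a fall. Boxes show quartiles and medians, whiskers the range from the 5th to the 95th percentile, and points single genes. Members lie higher in level (median 46.7 FPKM against 14.5) and shorter (median 1207 bases against 1947) than all eligible genes. The rule itself favours genes with a high WT level.

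Relative spread between libraries was larger for the members than for other genes in OE18 and about alike in OE14 and WT. The median coefficient of variation in OE18 was 11.9% for the 55 members with a read and 6.33% for all eligible genes. For the 81 other large falls with a read it was 8.61%. Median OE18 levels were 5.96 FPKM for the members, 12.6 for all other large falls and 13.8 for eligible genes. The spreads are therefore not compared at a like level. Members were also lowest there, with a median of 274 reads over the 3 OE18 libraries against 2042 over the WT libraries. In OE14 the median was 5.76% for the members and 5.63% for eligible genes, and in WT it was 5.06% and 5.504%.

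The members were spread over the genome. By their IDs, 54 lay on 16 of the 19 chromosomes and 3 on loci not placed on one, where 497 tested genes lay. Chromosomes 1 and 2 held 9 each, which is 15.8% of the members, against 11.7% of the tested genes on chromosome 1 and 7.24% on chromosome 2. The 85 other falls had 6 on chromosome 1 and 3 on chromosome 2. Chromosomes 7, 17 and 19 held none of the members. Within 10 tested genes of each other there was 1 pair of members, on chromosome 9. They stood 7 genes apart, at -3.25 and -2.77 in OE18 and at -0.59 and -0.61 in OE14.

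Genes beside the members had a median near that of other genes. The 108 tested genes next to a member on either side had a median OE18 difference of 0.03, with quartiles of -0.56 and 0.59. The 536 genes up to 5 places away had a median of 0.03, against 0.03 for the 21761 other genes on chromosomes. Limma called 37.9% of these 536 neighbours lower in OE18, against 37.8% of the other genes. At 2-fold or more, 15 of the 108 next genes (13.9%), 10.1% of the 536 and 9.10% of the other genes were lower, and these shares were not tested. Order was read from the locus numbers, and whether it holds in the genome of these plants was not examined.

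**Figure D5:**
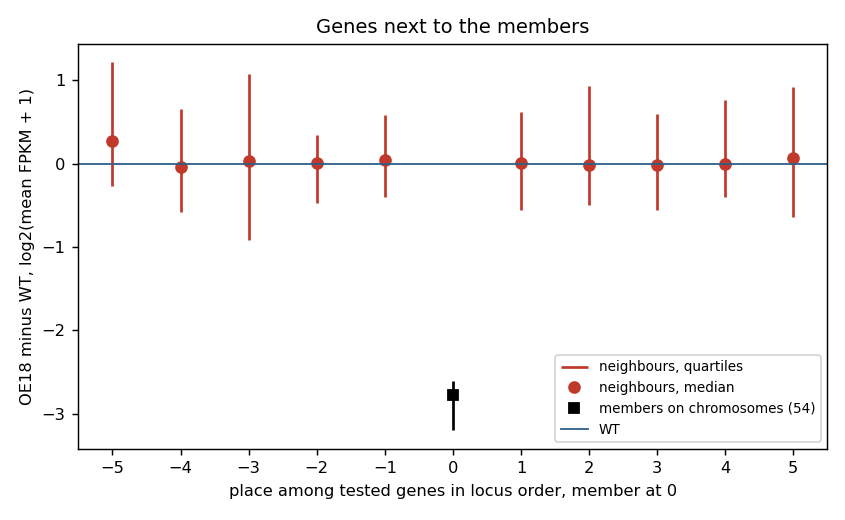
OE18 minus WT, in log2(mean FPKM + 1), for the 54 members on chromosomes (square, at 0) and for tested genes up to 5 places to either side in locus order. Points are medians and vertical lines quartiles. The medians of the neighbours lie between -0.04 and 0.27, whereas that of the members is below -2.5.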

How the data were processed

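The authors deposited 1 table of FPKM values for 9 leaf libraries. Per the submitters' processing notes, HISAT2 2.1.0 and Bowtie2 2.2.3 were used. Not given in the sources used here are the counter, genome build, annotation, strand setting and treatment of reads shared by similar genes, so levels of near-identical copies are uncertain.

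Whole reads, gene lengths and library totals were recovered from the FPKM steps. Of 29005 genes above 0 in 2 or more libraries, 100.0% gave reads within 0.001 of a whole number. At 1 kilobase, 3 reads correspond to 0.185 to 0.273 FPKM.

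Members followed the stated rule, computed with pandas 2.3.3. The members, lists and rules for named genes were chosen with earlier results of these data known. Genes to be named were the largest falls, the highest WT levels, those nearest the limits and those without reads. Only 2 IDs are printed because none could be annotated, and 26 gene lists by description, cell type markers included, could not be applied.

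Background calls came from limma 3.58.1 in R 4.3.3 on log2(FPKM + 1), in 1 fit with trend over 9 libraries, two-sided, at a Benjamini-Hochberg adjusted p under 0.05. Scripts were tested on simulated data. The planned count test by edgeR was not run, since FPKM are not counts. Limma voom on the recovered reads replaced it and was chosen after seeing the data, as was the reading of left-out libraries. Differences on this scale understate changes of low genes.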

Additional observations from a re-analysis of the deposited data

Results flagged for a closer look

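In 14 members all OE14 libraries lay above and all OE18 libraries below the WT libraries, which singled them out as moving in opposite directions in the lines. Their OE18 differences ran from -4.31 to -2.51 with a median of -2.92, and their OE14 differences from 0.10 to 0.80 with a median of 0.56. These 14 are 24.6% of the members. The same pattern was found in 2222 tested genes, 9.7% of all. Since the rule puts OE18 below WT, a closer background is the 8723 tested genes that lay wholly below WT in OE18. Of those, the 2222 genes are 25.5%, near the share among the members. The 8723 genes were not held to the limits of the rule on the fall and on OE14, so nothing is read from this. The difference between the lines was not tested for the members, because both comparisons with WT chose them and share the WT libraries.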

How the results depend on the processing

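The number of members depends on the limits and on the added constant. It was 87 with a pseudocount of 0.5, 184 with one of 0.1 (55 of the 57 among them) and 86 with quantile normalization. It was 173 with a fall limit of -2, 19 with one of -3, and 32 with an OE14 limit of 0.5. Other settings gave 54 to 69. Leaving out each library in turn gave 54 to 60 members, 50 to 57 of them shared with the 57. The median OE18 difference over the 57 was -2.97 and -3.24 with pseudocounts of 0.5 and 0.1, -2.94 with quantile normalization, and -2.86 with libraries rescaled to the same sum, against -2.79. These shifts exceeded 1 SD of the medians of the 3 OE18 libraries (0.0527), though the last was smaller than their whole range. It ran from -2.84 to -2.77 when each library was left out. For members with few reads, depth limits the size of the fall.

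The numbers of background calls stayed within 1.5 times in all 3 comparisons under every setting run, limma voom included. With a replicate block limma called 18223 genes in OE18 against WT, 12252 in OE14 against WT and 17827 in OE18 against OE14, against 18158, 12074 and 17745 without it. None of the 9 same-numbered pairs of libraries passed the limit of r over 0.1 for deviating together. Their r ran from -0.02 to 0.0997, so the highest was just under the limit. In pairs of unlike number r ran from -0.12 to 0.07. The WT numbers are those of the column headers, which no label ties to single WT samples. The numbers were not taken as pairs.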
